A study of Saccharomyces cerevisiae with 9 samples.

Results

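The comparison described here was the one between yeast cells that lacked both *PAB1* and *PBP1* and wild-type (WT) cells, that is, the net effect of losing the poly(A)-binding protein Pab1 together with the protein Pbp1. It was made on the 6 libraries of *pab1Δpbp1Δ* and WT, of 9 in the series, and its members were all 6587 completely spliced mRNA entries among the 6952 entries of the deposited transcript table. RNA-Seq had been done on rRNA-depleted, stranded libraries from WT, *pbp1Δ* and *pab1Δpbp1Δ* cells, 3 libraries of each strain. All strains were haploids of mating type **a** in the W303 background, grown in rich glucose medium (YEPD). The mutants carried *pbp1::URA3* and, in *pab1Δpbp1Δ*, also *pab1::kanMX*. Per the study's methods the mutant libraries came from separate isolates, those of *pab1Δpbp1Δ* all derived from 1 *pbp1Δ* isolate, while the WT libraries were technical replicates of 1 strain. The spread among WT libraries may therefore be technical, and the p-values of comparisons with WT measure spread of that kind in 1 of the groups. *pab1Δpbp1Δ* cells grow slowly, so their growth rate and their genotype cannot be told apart in these data.

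Pab1 coats the poly(A) tail of cytoplasmic mRNAs, where it interacts with the initiation factor eIF4G and the release factor eRF3 and influences both tail shortening and decapping. It is essential in otherwise normal cells. Pbp1, the yeast ataxin-2 protein, binds Pab1, has been linked to poly(A) tail length and to mitochondrial function, and its deletion lets cells without Pab1 live. The net change of an mRNA can thus be read as the sum of a pair of steps, from WT to *pbp1Δ* (the first step) and from *pbp1Δ* to *pab1Δpbp1Δ* (the second step). The net comparison and the first step share the WT libraries, the net comparison and the second step share the *pab1Δpbp1Δ* libraries, and the steps share the *pbp1Δ* libraries, so they are given side by side and their likeness was not tested.

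Expected counts added up to between 73062345 and 87763579 per WT library and to between 77751826 and 89196615 per *pab1Δpbp1Δ* library. Levels are in CPM, a count as a share of the TMM-adjusted library size, and changes are log2 fold changes ± standard error from edgeR's quasi-likelihood test. An mRNA was called higher or lower when its Benjamini-Hochberg adjusted p was under 0.01. Log2 CPM correlated between WT libraries with r of 0.998, and between *pab1Δpbp1Δ* libraries with r of 0.964 (replicates 1 and 2), 0.978 (1 and 3) and 0.988 (2 and 3), so that *pab1Δpbp1Δ* replicate 1 stood somewhat apart from the others. No spike-in is described, so every level is relative to the mRNA pool of its library, and less of an mRNA per cell cannot be told apart from more of the others. *PAB1* (chrV:510373-512106 in the R64 genome) was measured at 1770.0, 1808 and 1877 CPM in WT and at 0.501, 0.267 and 0.226 CPM in *pab1Δpbp1Δ*. *PBP1* (chrVII:851047-853215) was measured at 341, 334 and 351 CPM in WT and at 1.21, 1.47 and 1.20 CPM in *pab1Δpbp1Δ*. Both targeted genes were thus near 0 in every library labelled as lacking them. *URA3*, whose coding sequence marks the *PBP1* deletion, lay at 59.7, 55.9 and 56.3 CPM in WT and 100.1, 74.0 and 82.7 CPM in *pab1Δpbp1Δ* (0.57 ± 0.12, adjusted p = 0.00516 by edgeR), a call lost when any 1 WT replicate or *pab1Δpbp1Δ* replicate 3 was left out.

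A large part of the transcriptome differed between *pab1Δpbp1Δ* and WT cells. Of 6218 mRNAs tested, 2764 changed (44.5%), 1388 of them higher (22.3%) and 1376 lower (22.1%) in *pab1Δpbp1Δ* than in WT. The rises were larger than the falls. The median log2 fold change was 1.22 over the higher and -0.79 over the lower mRNAs, 844 rose and 381 fell at least 2-fold, and 115 rose and 7 fell at least 8-fold. The libraries of WT and *pab1Δpbp1Δ* did not overlap for 4386 mRNAs, 70.5% of those tested. The count of calls depended on which library was left out. It was 1511, 1563 and 1364 without WT replicate 1, 2 or 3, 2533 and 1748 without *pab1Δpbp1Δ* replicate 2 or 3, and 4046 without *pab1Δpbp1Δ* replicate 1. The split between directions depended on the scaling of the libraries. With upper-quartile normalization 2017 mRNAs were higher and 824 lower, 71.0% higher against 50.2% with TMM, and the median of all mRNAs moved from 0.03 to 0.28.

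The mRNAs that fell had higher levels in WT than those that rose. In WT the median level was 74.3 FPKM (reads scaled to transcript length and library size) for mRNAs lower in *pab1Δpbp1Δ*, 10.1 FPKM for those higher, and 32.1 FPKM for all tested. The lower mRNAs supplied 48.1%, 48.3% and 48.6% of the mRNA counts in the WT libraries and 35.0%, 32.4% and 33.6% in the *pab1Δpbp1Δ* libraries. The higher mRNAs supplied 3.90%, 3.92% and 3.80% in WT and 8.85%, 10.7% and 10.7% in *pab1Δpbp1Δ*. When the mRNAs were divided into 5 groups of equal size by mean log2 CPM over all 9 libraries, the median net log2 fold change went from 1.16 in the lowest group through 0.31, -0.02 and -0.22 to -0.53 in the highest. In the lowest group 581 were higher and 26 lower, and in the highest 66 were higher and 615 lower. Gene length, taken alone, showed the same order, with medians from 0.47 in the shortest of 5 groups to -0.29 in the longest. The longest genes also had higher levels, with a median of 124 CPM beside 18.06 CPM for the shortest. Within the level groups, from lowest to highest, the shortest genes had medians of 1.058, 0.473, 0.3265, 0.0708 and -0.338. The longest had 1.496 (21 mRNAs), 0.654, -0.0123, -0.231 and -0.534. The longest genes thus lay above the shortest in the lowest level group and the next, and below them in the rest. Outside the lowest level group, the medians did not follow length steadily. In the level group next to the lowest, genes of intermediate length had medians of 0.249, 0.193 and 0.308, below that of the shortest. In each list below, the level of its members can therefore move with the direction of their change, and its part in the result was not tested.

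**Figure D1:**
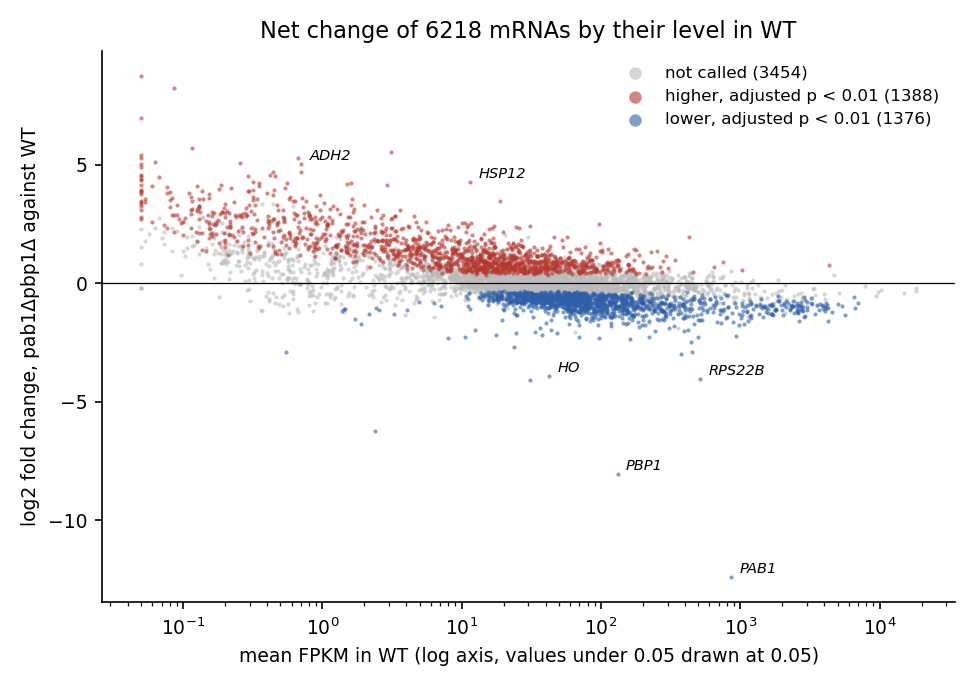
Each point is 1 of the 6218 mRNAs tested, with its mean FPKM in WT on the x axis (log axis) and its net log2 fold change in *pab1Δpbp1Δ* against WT on the y axis. The 1388 higher mRNAs (red) lie mostly at low WT levels (median 10.1 FPKM) and the 1376 lower ones (blue) at high levels (median 74.3 FPKM), while *PAB1* and *PBP1* lie far below all others.

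The largest rises were in mRNAs that WT cells hardly contain. By the rule for named genes these were *YLR012C*, *YHR054C*, *BSC4*, *GAT3*, *ADH2*, *DPA10*, *YFL019C*, *THI5*, *SPG4* and *ECM8*, with net log2 fold changes from 8.23 to 4.53. *ADH2* (chrXIII:873291-874337), the alcohol dehydrogenase that turns ethanol back into acetaldehyde and is repressed by glucose, was measured at 1.06, 0.802 and 0.785 CPM in WT, 1.38, 1.48 and 0.966 CPM in *pbp1Δ* and 27.6, 37.1 and 21.98 CPM in *pab1Δpbp1Δ* (5.03 ± 0.26, adjusted p = 4.12e-05 by edgeR). Its 3 *pab1Δpbp1Δ* libraries lay far above all others. *SPG4*, named for a need in stationary phase, lay at 0.232, 0.138 and 0.154 CPM in WT and 2.40, 5.90 and 3.91 CPM in *pab1Δpbp1Δ* (4.53 ± 0.44). *GAT3*, a GATA-type zinc-finger protein, lay at 0.0272, 0.0627 and 0.0154 CPM in WT and at 1.20, 1.48 and 1.31 CPM in *pab1Δpbp1Δ* (5.14 ± 0.42), and it was too low to be tested in the first step. *BSC4* (chrXIV:137699-138094), whose reading frame was described as having arisen from noncoding sequence, varied most among these, with 0.381, 0.351 and 0.308 CPM in WT and 4.55, 22.02 and 13.9 CPM in *pab1Δpbp1Δ* (5.27 ± 0.61). *THI5*, with 0.436, 0.288 and 0.831 CPM in WT and 13.0, 15.7 and 8.49 CPM in *pab1Δpbp1Δ*, belongs to a family of near-identical thiamine genes among which reads can be split.

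*YHR054C* (chrVIII:213185-214249), a reading frame between the annotated tandem copies of the metallothionein gene *CUP1*, went up at both steps. It was measured at 3.96, 4.80 and 3.08 CPM in WT, 20.9, 15.7 and 16.4 CPM in *pbp1Δ* and 166, 176 and 220.3 CPM in *pab1Δpbp1Δ*. Each strain's libraries formed a range of their own. The net log2 fold change was 5.56 ± 0.21 (adjusted p = 1.77e-05 by edgeR), made up of 2.16 at the first step and 3.42 at the second. The annotated *CUP1* copies on its flanks, *CUP1-1* and *CUP1-2*, hold the same counts as each other and did not pass the test (0.01 ± 0.08, adjusted p = 0.926), with 180.4, 172 and 188 CPM each in WT and 189, 176 and 181 CPM in *pab1Δpbp1Δ*.

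The largest falls were *PAB1* and *PBP1* themselves, then the spliced *HAC1* entry, *BSC1*, *RPS22B*, *HO*, *RPS9A*, *RPL18B*, *ARO10* and *RPL9B*. *HO* (chrIV:46271-48031), the endonuclease of mating-type switching, fell from 79.7, 86.5 and 93.9 CPM in WT to 47.0, 53.0 and 50.9 CPM in *pbp1Δ* and 3.50, 7.54 and 6.26 CPM in *pab1Δpbp1Δ* (-3.91 ± 0.28, adjusted p = 9.11e-05 by edgeR). Its libraries were in separate ranges in the 3 strains. *BSC1* (chrIV:384601-385587), a cell-surface-like reading frame known for stop-codon bypass, went from 31.0, 39.8 and 37.8 CPM in WT through 9.52, 11.5 and 11.6 CPM in *pbp1Δ* to 1.22, 2.73 and 2.54 CPM in *pab1Δpbp1Δ* (-4.07 ± 0.31). *ARO10*, a decarboxylase of amino acid catabolism, fell from 51.5, 45.1 and 61.0 CPM in WT to 10.1, 4.87 and 9.89 CPM in *pab1Δpbp1Δ* (-2.67 ± 0.28). Its *pbp1Δ* libraries, at 89.0, 32.9 and 32.8 CPM, held replicate 1 apart from the other two.

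Several of these falls were in genes with introns, for which the deposited table also lists an unspliced entry. The spliced entry of *HAC1* (chrVI:75179-76147), the transcription factor of the unfolded protein response whose mRNA is spliced by Ire1, fell from 2.27, 3.00 and 2.72 CPM in WT to 0.0401, 0 and 0.0616 CPM in *pab1Δpbp1Δ* (-6.24 ± 0.59), where the few reads left make its size uncertain. Its unspliced entry had a net value of -0.93 and the locus as a whole -0.94 (adjusted p = 0.013 by edgeR), which did not pass the threshold. *RPS22B*, a small-subunit ribosomal protein gene with introns, fell from 220.1, 196 and 207 CPM in WT to 9.24, 9.76 and 18.8 CPM in *pab1Δpbp1Δ* (-4.05 ± 0.29), with -2.28 for its unspliced entry and -3.10 for its locus. *RPL18B*, a large-subunit gene, fell from 302.9, 295 and 297 CPM in WT to 56.5, 31.0 and 32.9 CPM in *pab1Δpbp1Δ* (-2.90 ± 0.24), with -0.08 for its unspliced entry and -1.88 for its locus. Of 296 loci with both kinds of entry, 286 unspliced entries were tested, of which 26 were higher and 38 lower, with a median of -0.01 beside -0.33 for the spliced entries of the loci. *RPS9A* (-3.001 ± 0.71) lost its call when any 1 WT replicate or *pab1Δpbp1Δ* replicate 2 was left out, with upper-quartile normalization, and with the replicate number as a block (-3.50, adjusted p = 0.0521 by edgeR), and its *pab1Δpbp1Δ* libraries ranged from 5.68 to 61.9 CPM.

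To describe functions across all genes, 40 lists of genes with known roles were counted. Each count below is of members with a net adjusted p under 0.01, out of the members tested, and is to be read beside the 22.3% higher and 22.1% lower among all mRNAs. Medians are of net log2 fold changes unless a step is named. The counts of most lists fell when a WT replicate or *pab1Δpbp1Δ* replicate 3 was left out and rose without *pab1Δpbp1Δ* replicate 1, as the count over all mRNAs did. Where such a fit moved a list count of 10 or more by over 1.5 times, it is given with the library. Of the 45 list counts from 1 to 9, 38 moved that much without at least 1 library, 30, 27 and 35 of them without WT replicates 1, 2 and 3 and 16, 8 and 19 without *pab1Δpbp1Δ* replicates 1, 2 and 3, so small counts are weakly fixed.

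**Figure D2:**
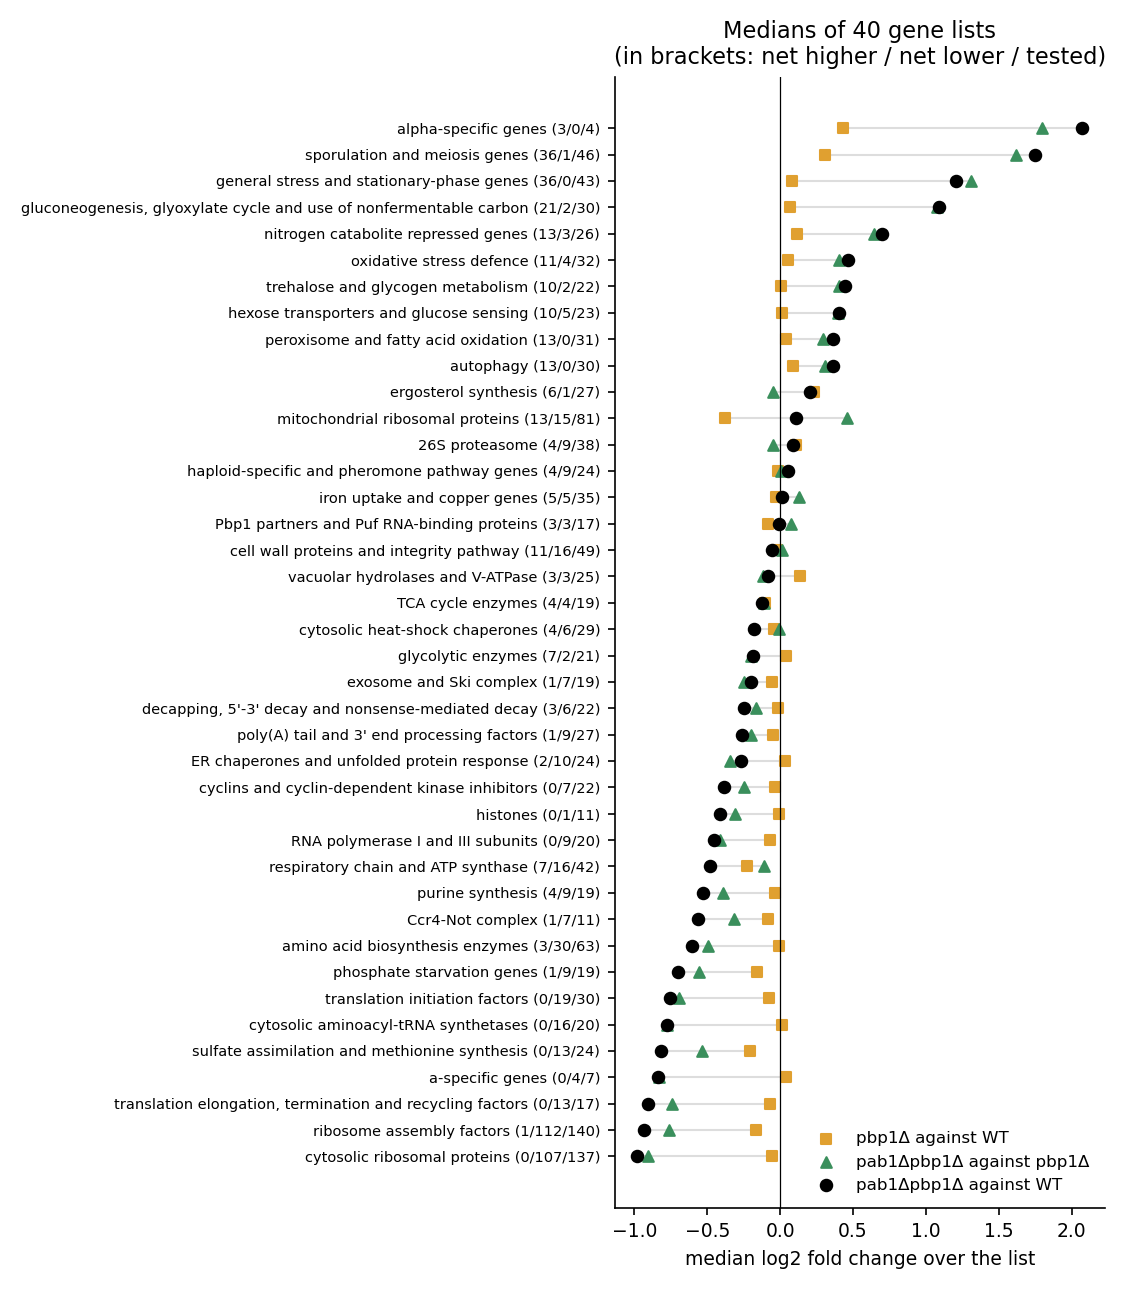
Medians of log2 fold changes over the tested members of 40 gene lists, one list per line, for *pbp1Δ* against WT (squares), *pab1Δpbp1Δ* against *pbp1Δ* (triangles) and the net comparison of *pab1Δpbp1Δ* with WT (circles); the numbers after each name are members higher, lower and tested in the net comparison. Ribosomal proteins have the lowest net median (-0.98), alpha-specific genes (2.08) and sporulation genes (1.75) the highest, and mitochondrial ribosomal proteins have steps on opposite sides of 0 (-0.38 and 0.46).

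Genes for making ribosomes fell together. Of 137 cytosolic ribosomal protein mRNAs, which encode the structural proteins of the ribosome, 107 were lower (78.1%) and none higher, with a median of -0.98. Of 140 ribosome assembly factors, which process rRNA and build the subunits in the nucleolus, 112 were lower (80.0%) and 1 higher, with a median of -0.93. Of 20 subunits of RNA polymerases I and III, which transcribe rRNA and tRNA, 9 were lower and none higher (median -0.45). The count of lower ribosomal protein mRNAs was 58, 71 and 61 without WT replicates 1, 2 and 3 and 60 without *pab1Δpbp1Δ* replicate 3, while 135 were lower without *pab1Δpbp1Δ* replicate 1. It was 78 with upper-quartile normalization. The polymerase count was 15 without *pab1Δpbp1Δ* replicate 1. The assembly factor count lay from 83 to 123 when any 1 library was left out.

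Among ribosomal proteins the libraries differed in extent. The list's median log2 ratio to WT was -0.68 in *pab1Δpbp1Δ* replicate 1, -1.24 in replicate 2 and -1.12 in replicate 3, and between -0.12 and 0.03 in *pbp1Δ*. Together the list took 15.8%, 15.3% and 14.6% of mRNA counts in WT and 12.4%, 8.68% and 9.71% in *pab1Δpbp1Δ*. *RPS28B*, a small-subunit protein whose mRNA is also a known target of the decapping activator Edc3, was among the most even falls, from 277, 276 and 242 CPM in WT to 75.7, 72.6 and 78.6 CPM in *pab1Δpbp1Δ* (-1.81 ± 0.09, adjusted p = 4.12e-05 by edgeR). *RPL8A*, a large-subunit protein, went from 726, 705 and 706 CPM to 206, 140.3 and 99.1 CPM (-2.27 ± 0.25). *RPL10* (-0.41 ± 0.19, adjusted p = 0.0985), *RPS4A* (-0.41 ± 0.19, adjusted p = 0.094) and *RPL15B* (0.18 ± 0.12, adjusted p = 0.222) did not pass the test. *RPL15B* had the highest value of the list. Many ribosomal protein genes are pairs of close copies, between which the authors' counting may have divided reads. None of these mRNAs passed the threshold with the same sign at both steps, and the list's medians were -0.06 at the first step and -0.91 at the second.

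Among assembly factors the first step already pointed down. *RRP9* (chrXVI:802359-804080), a protein of the U3 snoRNP that takes part in cleavage of the rRNA precursor, was measured at 175, 189 and 204 CPM in WT, 129, 148 and 143 CPM in *pbp1Δ* and 59.3, 50.2 and 58.1 CPM in *pab1Δpbp1Δ*. The ranges of the 3 strains did not overlap. Its net log2 fold change was -1.77 ± 0.11 (adjusted p = 6.07e-05 by edgeR), with -0.43 at the first step and -1.32 at the second. *CIC1*, a factor of large-subunit assembly, had a net value of -1.71 ± 0.14, with -0.36 and -1.33 at the steps. The median of the list was -0.16 at the first step and -0.77 at the second. At the first step 19 members were lower (13.6%), beside 6.37% of all mRNAs tested there. At the second 95 were lower (67.9%) and 1 higher, beside 17.2% lower among all mRNAs. In 12 members both steps were called lower: *BUD23*, *CIC1*, *DBP3*, *DBP7*, *DBP9*, *ENP1*, *MAK5*, *NOP2*, *NOP53*, *REI1*, *RRP9* and *UTP4*. The member that rose, *NOP6* (0.51 ± 0.11), lost its call when any 1 WT replicate was left out.

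Genes of translation itself fell as well. Of 30 initiation factor mRNAs, 19 were lower and none higher (median -0.76). *SUI1*, which encodes eIF1 and helps select the start codon, fell from 212, 209 and 208 CPM in WT to 62.8, 82.0 and 72.8 CPM in *pab1Δpbp1Δ* (-1.53 ± 0.12, adjusted p = 0.000105 by edgeR). *TIF4631*, 1 of the genes for the Pab1 partner eIF4G, was measured at 985, 1073 and 1137 CPM in WT, 707, 887 and 803 CPM in *pbp1Δ* and 486, 325 and 344 CPM in *pab1Δpbp1Δ* (-1.47 ± 0.17), and passed the test at each step (-0.41 and -1.05). Its paralog *TIF4632* had a net value of -1.11 ± 0.10. The cap-binding protein mRNA *CDC33* (eIF4E) did not pass the test (-0.28 ± 0.19, adjusted p = 0.228), with 566, 358 and 358 CPM in *pab1Δpbp1Δ* around 529, 493 and 531 CPM in WT.

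Of 17 elongation, termination and recycling factor mRNAs, 13 were lower and none higher (median -0.91), and the count was 8 and 7 without WT replicates 1 and 3. *SUP35*, which encodes the release factor eRF3 that binds Pab1, went from 611, 648 and 706 CPM in WT to 299, 278 and 298 CPM in *pab1Δpbp1Δ* (-1.17 ± 0.10, adjusted p = 0.000142 by edgeR). *RLI1*, the ribosome recycling ATPase, had a net value of -1.37 ± 0.11. Of 20 cytosolic aminoacyl-tRNA synthetases, which charge tRNAs, 16 were lower and none higher (median -0.77), and 8, 8 and 7 were lower without WT replicates 1, 2 and 3. With upper-quartile normalization 8 synthetases were lower. *CDC60*, the leucyl-tRNA synthetase, fell from 1391, 1463 and 1577 CPM in WT to 723, 569 and 459 CPM in *pab1Δpbp1Δ* (-1.34 ± 0.18).

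Promoters of the assembly factors hold a known pair of motifs, so these were searched in the stretch from 250 bases before to 50 bases after the annotated start of each of 5779 tested genes in the R64 reference genome. The reference strain is not the strain of the study, and letters may differ there. The motifs were PAC, CGATGAG, and RRPE, AAAATTTT, on either strand, and neither holds the other within its letters. PAC was in 65.0% of assembly factor windows (91 of 140) beside 7.16% of all windows, and RRPE in 79.3% (111 of 140) beside 9.26%. PAC was in 13.9% of windows of lower mRNAs and in 3.29% of windows of higher mRNAs. The mRNAs of the 158 windows that held both motifs, assembly factors included, had a median net log2 fold change of -0.70, with 99 lower (62.7%) and 8 higher. The mRNAs of the 4988 windows with neither had a median of 0.05, with 1023 lower and 1161 higher. The following stretches show the PAC letters, in capitals on the strand of the gene, for 4 members that fell, chosen as examples after their values were seen. A match describes letters only. *CIC1* (net -1.71), *NSR1*, an rRNA processing protein (net -1.45), *EBP2*, a large-subunit assembly factor (net -1.29), and *MRT4*, an mRNA turnover and ribosome assembly factor (net -0.99), were as follows.
*CIC1*, chrVIII:210714-210743, plus strand: ttccactggagCTCATCGcaaattttgaaa
*NSR1*, chrVII:807825-807854, minus strand: tgcaagggcagCTCATCGcaagaacgaaaa
*EBP2*, chrXI:125623-125652, plus strand: tgatataactaCTCATCGggactgaaaatt
*MRT4*, chrXI:426114-426143, plus strand: ccagaaaaatgCGATGAGcttttgaaaagt
The first 3 hold PAC on the strand opposite to the gene and *MRT4* on the gene's own strand, with starts 117 to 187 bases before the annotated gene start.

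The listed general stress and stationary-phase genes rose as a group. Of 43 tested, 36 were higher (83.7%) and none lower, with a median of 1.21, and between 30 and 38 were when any 1 library was left out. The list's median log2 ratio to WT was 1.12, 1.26 and 1.21 in the *pab1Δpbp1Δ* libraries and between 0.01 and 0.09 in *pbp1Δ*. *CTT1*, the cytosolic catalase, was measured at 14.7, 14.8 and 15.2 CPM in WT, 14.2, 12.2 and 14.6 CPM in *pbp1Δ* and 53.1, 86.2 and 72.8 CPM in *pab1Δpbp1Δ* (2.24 ± 0.18, adjusted p = 0.000123 by edgeR). The *pbp1Δ* libraries lay just under those of WT, and all *pab1Δpbp1Δ* libraries lay above both. *HSP12* (chrVI:107256-107585), a small membrane-associated stress protein, lay at 6.54, 4.47 and 4.94 CPM in WT, 3.29, 2.26 and 2.80 CPM in *pbp1Δ* and 120.1, 74.9 and 117 CPM in *pab1Δpbp1Δ* (4.28 ± 0.24, adjusted p = 5.11e-05). It was thus lowest in *pbp1Δ* and highest in *pab1Δpbp1Δ*. *HSP26*, a small heat-shock chaperone, had a net value of 1.84 ± 0.20, and *DDR2*, a stress-responsive gene of unclear function, 1.495 ± 0.20. At the first step 1 member was higher and 5 lower (11.6%, beside 6.37% of all mRNAs). At the second 37 were higher (86.0%, beside 18.6% of all mRNAs) and none lower. Gene ontology terms for stress did not all share the list's direction in the net comparison. For cellular response to stress 2 of 21 were higher and 6 lower (median 0.02), for response to heat 14 of 54 and 15 (median -0.08). For response to osmotic stress 3 of 16 were higher and 4 lower (median -0.08), for response to oxidative stress 29 of 84 and 12 (median 0.27).

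The stress response element CCCCT, the site of the stress factors Msn2 and Msn4, was searched the same way on both strands. It was in 55.8% of the windows of stress and stationary-phase genes (24 of 43), in 30.2% of the windows of all higher mRNAs, in 15.5% of those of lower mRNAs and in 21.98% of all windows. The mRNAs of the 1270 windows that held it had a median net log2 fold change of 0.19, with 377 higher and 211 lower, and those of the 4509 windows without it -0.06, with 870 higher and 1150 lower. The next lines show CCCCT in capitals, each stretch on the strand of its gene, for 3 stress genes chosen as examples after their values were seen.
*HSP12*, chrVI:107054-107083, plus strand: gttccggtcgtcCCCCTcttgatctgaaag
*CTT1*, chrVII:654489-654518, plus strand: catttatcgtatCCCCTactgctacacgta
*DDR2*, chrXV:231913-231942, minus strand: tgtcttttctcaCCCCTtatgggacatcaa
*HSP12* held 2 matches in its window, *CTT1* 1 and *DDR2* 3.

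Most listed genes of carbon use away from glucose rose, while hexose transporter and glucose sensing genes were split. Of 30 genes of gluconeogenesis, the glyoxylate cycle and the use of nonfermentable carbon, 21 were higher (70.0%) and 2 lower, with a median of 1.09, and the list's median log2 ratio to WT was 0.76, 1.09 and 1.00 in the *pab1Δpbp1Δ* libraries. *SFC1*, which carries succinate and fumarate across the mitochondrial membrane, was measured at 0.354, 0.338 and 0.323 CPM in WT and 4.87, 5.48 and 4.83 CPM in *pab1Δpbp1Δ* (3.89 ± 0.21, adjusted p = 4.12e-05 by edgeR). *PCK1*, the entry enzyme of gluconeogenesis, had a net value of 2.11 ± 0.22, and *ADR1*, a transcription factor of glucose-repressed genes, 1.75 ± 0.14. *ALD6*, the cytosolic aldehyde dehydrogenase, fell from 1827, 1791 and 1763 CPM in WT to 745, 808 and 814 CPM in *pab1Δpbp1Δ* (-1.19 ± 0.11, adjusted p = 0.000151). *ACH1*, an acetate transferase, was the other lower member (-0.68 ± 0.13), and its call was lost when any 1 WT replicate or *pab1Δpbp1Δ* replicate 3 was left out, and with upper-quartile normalization.

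Among 23 hexose transporter and glucose sensing mRNAs, 10 were higher and 5 lower (median 0.40), with 5 higher and 3 lower in each of the fits without WT replicate 1, 2 or 3 or without *pab1Δpbp1Δ* replicate 3. *HXT2*, a high-affinity transporter, fell from 320.3, 264 and 267 CPM in WT to 69.9, 52.2 and 42.5 CPM in *pab1Δpbp1Δ* (-2.37 ± 0.19, adjusted p = 0.000123 by edgeR), and *HXT4* had a net value of -2.08 ± 0.23. *HXT10*, a scarce family member, rose from 0.232, 0.175 and 0.385 CPM in WT to 5.01, 4.06 and 2.78 CPM in *pab1Δpbp1Δ* (3.91 ± 0.38). The named rise was thus in a transporter that WT cells hardly contain. Of 31 peroxisome and fatty acid oxidation mRNAs, 13 were higher and none lower (median 0.36), and 4, 7, 5 and 5 were higher without WT replicates 1, 2 and 3 and *pab1Δpbp1Δ* replicate 3. *POX1*, the first enzyme of fatty acid oxidation, rose from 0.422, 0.376 and 0.385 CPM in WT to 6.25, 6.11 and 3.97 CPM in *pab1Δpbp1Δ* (3.78 ± 0.27). Of 22 trehalose and glycogen genes, 10 were higher and 2 lower (median 0.44), and 6 were higher without each of the WT replicates. *GAC1*, a targeting subunit of the phosphatase that activates glycogen synthase, had a net value of 2.49 ± 0.21, and *UGP1*, which makes the sugar donor of both polymers, -0.93 ± 0.08.

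Central carbon metabolism gave no common direction. Of 21 glycolytic mRNAs 7 were higher and 2 lower (median -0.19). *PDC6*, a minor pyruvate decarboxylase, rose from 0.722, 0.840 and 1.05 CPM in WT to 7.95, 15.5 and 10.7 CPM in *pab1Δpbp1Δ* (3.71 ± 0.31, adjusted p = 0.000123 by edgeR). The 2 lower ones, *PFK1* (-0.76 ± 0.14) and *ENO2* (-0.57 ± 0.13), lost their calls when any 1 WT replicate was left out and with upper-quartile normalization. *ENO2* lost its call also without *pab1Δpbp1Δ* replicate 2 or 3 and with the replicate number as a block (-0.58, adjusted p = 0.0189 by edgeR). Of 19 TCA cycle mRNAs 4 were higher and 4 lower (median -0.12). *CIT3*, a mitochondrial citrate and methylcitrate synthase, had a net value of 2.01 ± 0.25, and *KGD2*, a subunit of alpha-ketoglutarate dehydrogenase, -0.73 ± 0.08. With upper-quartile normalization the medians of glycolytic and TCA cycle mRNAs were 0.05 and 0.12, so that their sign depended on the scaling. Of 42 respiratory chain and ATP synthase mRNAs 7 were higher and 16 lower (median -0.48), and 10 were lower without WT replicate 1 or 3 and 25 without *pab1Δpbp1Δ* replicate 1. *COX4*, a cytochrome c oxidase subunit, fell from 139.8, 132 and 138 CPM in WT through 111, 93.8 and 105 CPM in *pbp1Δ* to 55.0, 30.6 and 35.5 CPM in *pab1Δpbp1Δ* (-1.76 ± 0.21). *CYC7*, the minor form of cytochrome c, rose from 5.69, 5.58 and 4.72 CPM in WT to 19.5, 25.9 and 27.7 CPM (2.19 ± 0.17).

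Lists of amino acid and purine synthesis held more lower than higher members, apart from purine synthesis with upper-quartile normalization. Of 63 amino acid biosynthesis enzymes 30 were lower and 3 higher (median -0.60), and 16 were lower without WT replicate 3. *LYS20*, the first enzyme of lysine synthesis, had a net value of -1.54 ± 0.18. *SER3*, which starts serine synthesis, was the largest rise, from 48.9, 52.5 and 51.5 CPM in WT to 196, 430.0 and 204 CPM in *pab1Δpbp1Δ* (2.44 ± 0.31, adjusted p = 0.000561 by edgeR), with replicate 2 above the others. Of 24 sulfate assimilation and methionine genes 13 were lower and none higher (median -0.82), and 7 were lower without WT replicate 3. At the first step 11 of them were lower (45.8%, beside 6.37% of all mRNAs). *MET2*, which activates homoserine for methionine synthesis, went from 44.1, 41.0 and 41.0 CPM in WT through 27.4, 28.3 and 26.1 CPM in *pbp1Δ* to 9.29, 11.5 and 8.71 CPM in *pab1Δpbp1Δ* (-2.10 ± 0.14, adjusted p = 6.69e-05).

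Of 19 purine synthesis mRNAs 9 were lower and 4 higher (median -0.53), with 5 lower without WT replicate 2 or 3 and 5 higher and 5 lower with upper-quartile normalization. *ADE17*, an enzyme of the last steps to IMP, rose from 33.2, 33.6 and 33.1 CPM in WT to 142, 182 and 173 CPM in *pab1Δpbp1Δ* (2.31 ± 0.12, adjusted p = 4.12e-05 by edgeR), with 30.8, 32.5 and 33.8 CPM in *pbp1Δ*. *IMD2*, an IMP dehydrogenase, rose mainly at the first step, from 84.5, 82.0 and 86.5 CPM in WT to 223, 250.4 and 228 CPM in *pbp1Δ* and 366, 323 and 305 CPM in *pab1Δpbp1Δ* (1.97 ± 0.10). The 2 largest purine rises thus arose at different steps. *IMD2* has close paralogs that can share reads.

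Chaperone lists stood apart from the stress list. Of 29 mRNAs listed as cytosolic heat-shock chaperones 4 were higher and 6 lower (median -0.18, and 0.06 with upper-quartile normalization). Without *pab1Δpbp1Δ* replicate 1 the lower ones were 12. The lower ones included *HSP78*, which encodes a mitochondrial chaperone, so the list was not purely cytosolic. *HSP42*, a chaperone that sorts aggregated proteins, had a net value of 1.20 ± 0.10, and *SIS1*, an Hsp40 co-chaperone, -1.18 ± 0.08. Of 24 ER chaperone and unfolded protein response mRNAs 10 were lower and 2 higher (median -0.27), and 6 were lower without *pab1Δpbp1Δ* replicate 3. *SEC63*, a component of the ER translocation channel, had a net value of -1.15 ± 0.19, a call lost without that replicate. Of 32 oxidative stress genes 11 were higher and 4 lower (median 0.47), with 7 higher without each of the WT replicates and 18 without *pab1Δpbp1Δ* replicate 1. *GPX1*, a glutathione peroxidase, had a net value of 1.62 ± 0.23, and *TRR1*, the cytosolic thioredoxin reductase, -0.94 ± 0.14.

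Protein breakdown lists differed from one another. Of 30 listed autophagy mRNAs 13 were higher and none lower (median 0.36), with 5, 5 and 4 higher without WT replicates 1, 2 and 3 and 5 without *pab1Δpbp1Δ* replicate 3. Gene ontology terms did not all share this direction. For autophagy 5 of 26 were higher and 4 lower (median -0.08), and for macroautophagy 10 of 68 and 16 (median 0.04). For autophagy of mitochondrion 10 of 30 were higher and 3 lower (median 0.18). *ATG39*, a receptor for autophagy of the nucleus, rose from 1.73, 1.59 and 1.63 CPM in WT through 2.61, 2.39 and 2.66 CPM in *pbp1Δ* to 9.71, 10.2 and 9.39 CPM in *pab1Δpbp1Δ* (2.56 ± 0.15, adjusted p = 5.9e-05 by edgeR). Of 38 proteasome mRNAs 4 were higher and 9 lower (median 0.09, and -0.01 without *pab1Δpbp1Δ* replicate 1), with 5, 2 and 2 lower without WT replicates 1, 2 and 3, and with upper-quartile normalization 14 were higher and 2 lower (median 0.33). The direction of the proteasome list thus followed the scaling. *UMP1*, a proteasome assembly chaperone, had a net value of 0.91 ± 0.09, and *RPT3*, an ATPase subunit, -0.78 ± 0.10. Of 25 vacuolar hydrolase and V-ATPase mRNAs 3 were higher and 3 lower (median -0.08, 0.16 with upper-quartile normalization and 0.10 without *pab1Δpbp1Δ* replicate 3), among them *ATH1*, the acid trehalase (1.84 ± 0.21), and *APE1*, a vacuolar aminopeptidase (-1.45 ± 0.12).

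Most listed genes that haploid cells in rich medium keep low were higher. Of 46 sporulation and meiosis mRNAs 36 were higher (78.3%) and 1 lower, with a median of 1.75. Among all mRNAs of the lowest of the 5 level groups 46.7% were higher and 2.09% lower (median 1.16). Broader gene ontology terms were more mixed. For meiotic cell cycle 13 of 47 were higher and 11 lower (median 0.07), for ascospore formation 22 of 52 and 10 (median 0.49). For prospore membrane 36 of 72 were higher and 19 lower (median 0.69). The list's median log2 ratio to WT, with 0.5 CPM added, was 0.85, 1.29 and 1.27 in the *pab1Δpbp1Δ* libraries and between 0.13 and 0.17 in *pbp1Δ*. The count of higher members was 21, 21 and 23 without WT replicates 1, 2 and 3 and 23 without *pab1Δpbp1Δ* replicate 3. *REC8*, the cohesin subunit of meiosis, was measured at 0.804, 0.727 and 0.723 CPM in WT and 6.92, 16.5 and 11.8 CPM in *pab1Δpbp1Δ* (3.96 ± 0.34, adjusted p = 0.000141 by edgeR). *IME2*, a kinase of early meiosis, rose from 7.56, 8.36 and 6.23 CPM in WT through 10.5, 9.64 and 11.1 CPM in *pbp1Δ* to 19.8, 40.7 and 41.4 CPM in *pab1Δpbp1Δ* (2.20 ± 0.29). *NDT80*, the factor of middle meiosis, lay at 1.32, 1.11 and 0.862 CPM in WT and 2.56, 2.55 and 2.64 CPM in *pab1Δpbp1Δ* (1.23 ± 0.23). In absolute terms the list stayed small, at 0.0259%, 0.0273% and 0.0261% of mRNA counts in WT and 0.0483%, 0.0935% and 0.0867% in *pab1Δpbp1Δ*. *SPS4*, a gene of unknown function induced in sporulation, was the member that fell, from 14.7, 15.2 and 15.4 CPM in WT to 3.05, 3.94 and 4.58 CPM (-1.97 ± 0.18).

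Genes of cell type moved in opposite directions by mating type. Of 7 **a**-specific mRNAs, which **a** cells express for mating, 4 were lower and none higher (median -0.84), with 2 lower without WT replicate 1 or 3 or without *pab1Δpbp1Δ* replicate 3. *STE6*, the exporter of **a**-factor, fell from 512, 478 and 506 CPM in WT to 196, 197 and 199 CPM in *pab1Δpbp1Δ* (-1.34 ± 0.09, adjusted p = 7e-05 by edgeR). *BAR1*, the protease that degrades alpha-factor, fell from 249.5, 233 and 241 CPM to 59.8, 100.2 and 64.8 CPM (-1.69 ± 0.20), and *STE2*, the alpha-factor receptor, did not pass the test (-0.53 ± 0.19, adjusted p = 0.0418). Of 4 alpha-specific mRNAs, which **a** cells normally keep low, 3 were higher (median 2.08). *STE3*, the **a**-factor receptor of alpha cells, rose from 1.82, 1.23 and 1.39 CPM in WT through 3.33, 3.31 and 3.08 CPM in *pbp1Δ* to 13.0, 14.5 and 15.1 CPM in *pab1Δpbp1Δ* (3.26 ± 0.19). *SAG1*, the agglutinin of alpha cells, rose from 50.4, 55.1 and 53.2 CPM in WT to 94.4, 213 and 208 CPM (1.70 ± 0.29). The receptors kept the order of **a** cells in level, counted without regard to gene length. *STE2* lay at 310.1, 535 and 425 CPM and *STE3* at 13.0, 14.5 and 15.1 CPM in *pab1Δpbp1Δ*. Other members did not all keep it. *MFA1*, an **a**-specific mRNA, lay above *SAG1* in WT, at 103.9, 107.6 and 103.8 CPM. In *pab1Δpbp1Δ* it lay below *SAG1* in every library, at 16.96, 45.04 and 34.6 CPM. *AGA2*, also **a**-specific, lay below *SAG1* in both strains. *STE2* and the **a**-specific *MFA2* lay above *SAG1* in same-numbered libraries of both.

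**Figure D3:**
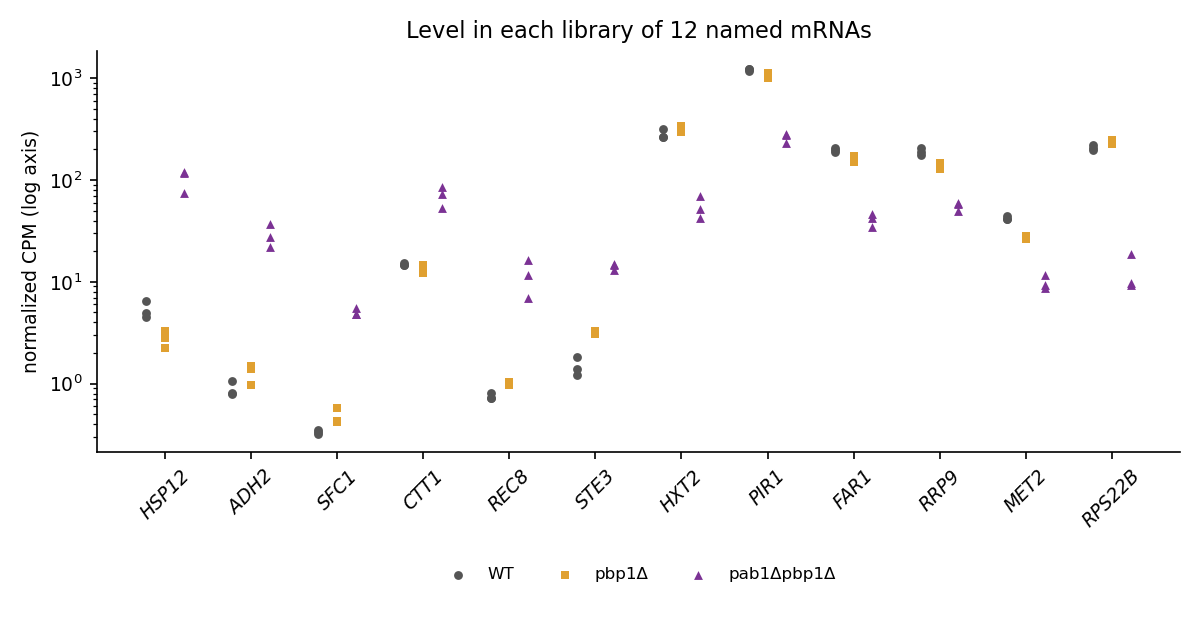
Normalized CPM (log axis) of 12 named mRNAs in each library of WT (grey circles), *pbp1Δ* (orange squares) and *pab1Δpbp1Δ* (purple triangles). From *HSP12* to *STE3* the 3 *pab1Δpbp1Δ* libraries lie above all WT libraries and from *HXT2* to *RPS22B* below them, and *HSP12* lies below WT in *pbp1Δ* and above it in *pab1Δpbp1Δ*.

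Of 24 haploid-specific and pheromone pathway mRNAs 4 were higher and 9 lower (median 0.06, and -0.09 without *pab1Δpbp1Δ* replicate 2). *FAR1*, which arrests the cell cycle in pheromone, fell from 187, 199 and 207 CPM in WT through 149, 172 and 159 CPM in *pbp1Δ* to 34.8, 46.8 and 42.8 CPM in *pab1Δpbp1Δ* (-2.26 ± 0.13, adjusted p = 5.59e-05 by edgeR). *STE18*, a G-protein subunit of the pathway, had a net value of 1.37 ± 0.13. Of 22 cyclins and kinase inhibitors 7 were lower and none higher (median -0.39), with 2, 2 and 1 lower without WT replicates 1, 2 and 3, 4 without *pab1Δpbp1Δ* replicate 3, and 3 lower and 2 higher with upper-quartile normalization. *CLN2*, a G1 cyclin, had a net value of -0.82 ± 0.13, a call lost without WT replicate 3. Of 11 histone mRNAs 1 was lower, *HTB1* (-0.93 ± 0.15), a call lost without WT replicate 3 or *pab1Δpbp1Δ* replicate 3, and 7 were lower without *pab1Δpbp1Δ* replicate 1.

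The cell surface and nutrient lists were mixed. Of 49 cell wall and integrity pathway mRNAs 11 were higher and 16 lower (median -0.05), and with upper-quartile normalization 17 were higher and 15 lower (median 0.19). *PIR1*, an abundant wall protein, fell from 1225, 1187 and 1232 CPM in WT to 276, 231 and 280.4 CPM in *pab1Δpbp1Δ* (-2.21 ± 0.12, adjusted p = 4.12e-05 by edgeR). *GAS4*, a wall enzyme of sporulating cells, rose from 0.599, 0.439 and 0.477 CPM to 4.67, 4.09 and 3.86 CPM (3.05 ± 0.23). Of 27 ergosterol synthesis mRNAs 6 were higher and 1 lower (median 0.20), with 3, 2 and 2 higher without WT replicates 1, 2 and 3, and with DESeq2 6 were higher and 7 lower. *ERG28*, a scaffold of the sterol enzymes, rose from 135, 128 and 120.4 CPM in WT through 191, 171 and 172 CPM in *pbp1Δ* to 371, 293 and 286 CPM in *pab1Δpbp1Δ* (1.304 ± 0.12). *HMG1*, the lower one (-0.51 ± 0.12), lost its call when any 1 library other than *pab1Δpbp1Δ* replicate 1 was left out and under 3 of 8 other settings, RLE and upper-quartile normalization among them.

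Of 26 genes under nitrogen catabolite repression, which are kept low while good nitrogen sources last, 13 were higher and 3 lower (median 0.70), with 4, 6 and 4 higher without WT replicates 1, 2 and 3 and 6 without *pab1Δpbp1Δ* replicate 3. *DAL80*, a GATA-type repressor of the regulon, rose from 5.58, 5.18 and 4.29 CPM in WT through 7.87, 9.40 and 7.91 CPM in *pbp1Δ* to 19.4, 32.5 and 20.03 CPM in *pab1Δpbp1Δ* (2.25 ± 0.24, adjusted p = 0.000273 by edgeR). Of 19 phosphate starvation mRNAs 9 were lower and 1 higher (median -0.70), with 5 lower without WT replicate 1 or 3 and 14 without *pab1Δpbp1Δ* replicate 1. *PHM6*, a gene of the regulon with no assigned function, fell from 18.5, 17.4 and 19.96 CPM to 6.62, 3.81 and 2.93 CPM (-2.07 ± 0.29). Of 35 iron and copper mRNAs 5 were higher and 5 lower, with 2 to 11 higher and 1 to 7 lower when any 1 library was left out, and each of the 6 libraries moved 1 of these counts by over 1.5 times. *FIT2*, a wall mannoprotein of siderophore uptake, had a net value of 1.48 ± 0.18, and *FRE4*, a reductase for iron, -2.17 ± 0.33.

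Most lists of factors that act on the poly(A) tail and on mRNA decay held more lower than higher members. Several shares lay not far from that of all mRNAs (22.1% lower). The share lower was 63.6% for Ccr4-Not, 36.8% for exosome and Ski and 33.3% for poly(A) factors. It was 27.3% for decapping and decay and 17.65% for Pbp1 partners and Puf proteins. Of 27 mRNAs listed for the poly(A) tail and 3′ end processing 9 were lower and 1 higher (median -0.26). Without WT replicates 1, 2 and 3 the lower ones were 3, 3 and 2, and without *pab1Δpbp1Δ* replicate 3 they were 3. The higher entry was *PFS1*, a gene of prospore formation and not a 3′ end processing factor. Its call was lost when any 1 WT replicate was left out. *NAB2*, the nuclear poly(A)-binding protein, went from 202, 205 and 214 CPM in WT to 151, 149.7 and 148 CPM in *pab1Δpbp1Δ* (-0.47 ± 0.08, adjusted p = 0.00192 by edgeR). The subunits of the Pab1-dependent deadenylase did not pass the test, with 0.24 ± 0.28 for *PAN2* and -0.23 ± 0.12 for *PAN3*, and *PAN2* ranged from 128 to 310 CPM over the *pab1Δpbp1Δ* libraries. Of 11 subunits of Ccr4-Not, the main deadenylase, 7 were lower and 1 higher (median -0.57), with 4, 3 and 3 lower without WT replicates 1, 2 and 3. *POP2*, a nuclease subunit, went from 133, 133 and 139.6 CPM in WT to 69.8, 53.3 and 65.4 CPM in *pab1Δpbp1Δ* (-1.11 ± 0.11), and *CCR4*, the other one, had a net value of -0.64 ± 0.11.

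Of 22 mRNAs for decapping, 5′ to 3′ decay and nonsense-mediated decay 6 were lower and 3 higher (median -0.25), with 3, 3 and 1 lower without WT replicates 1, 2 and 3, and 2 lower and 4 higher with upper-quartile normalization. *NAM7*, which encodes the helicase Upf1, went from 375, 388 and 421 CPM in WT to 190.0, 186 and 184 CPM in *pab1Δpbp1Δ* (-1.08 ± 0.09, adjusted p = 0.000133 by edgeR). *PAT1*, a decapping activator, had a net value of -0.74 ± 0.12, and *EDC1*, another, rose from 43.4, 45.8 and 44.4 CPM to 146, 95.2 and 126 CPM (1.45 ± 0.15). Of 19 exosome and Ski complex mRNAs 7 were lower and 1 higher (median -0.20, and 0.04 with upper-quartile normalization), with 4, 3 and 3 lower without WT replicates 1, 2 and 3 and 4 without *pab1Δpbp1Δ* replicate 3. *MTR4*, the helicase that feeds the nuclear exosome, fell from 297, 311 and 329 CPM in WT to 112, 105 and 119.8 CPM (-1.48 ± 0.10). Of 17 Pbp1 partners and Puf RNA-binding proteins 3 were higher and 3 lower (median 0.00, and 0.24 with upper-quartile normalization). *PUF3*, which binds mRNAs for mitochondrial proteins, had a net value of 0.05 ± 0.11 (adjusted p = 0.701), and *JSN1*, another Puf protein, 0.98 ± 0.12.

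The net change was then set beside its steps. At the first step 722 of 6092 mRNAs changed (11.9%), 334 higher (5.48%) and 388 lower (6.37%), with a median size of 0.34 on the log2 scale. At the second step 2232 of 6230 changed (35.8%), 1158 higher (18.6%) and 1074 lower (17.2%), with a median size of 0.89. Of the 2764 mRNAs with a net change, 1845 were called at the second step alone, 172 at the first alone, 207 at both in the same direction, 24 at both in opposite directions, and 516 at neither. Of the mRNAs with no net call, 32 were called in opposite directions at the steps, 287 at the first alone and 124 at the second alone. These counts depend on the power of each fit, since the *pab1Δpbp1Δ* libraries spread more than the others. edgeR's estimate of the variation between libraries, as a coefficient, came to 16.7% for the net fit, 6.72% for the first step and 17.0% for the second. With all 9 libraries in the fit, which then share 1 estimate of spread, 18 mRNAs were called at the first step, 8 added and 1 cancelled. The first-step count was 354 and 355 without WT replicates 2 and 3 and 359 and 316 without *pbp1Δ* replicates 2 and 3. The second-step count was 964, 847 and 964 without *pbp1Δ* replicates 1, 2 and 3 and 3762 and 1228 without *pab1Δpbp1Δ* replicates 1 and 3.

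**Figure D4:**
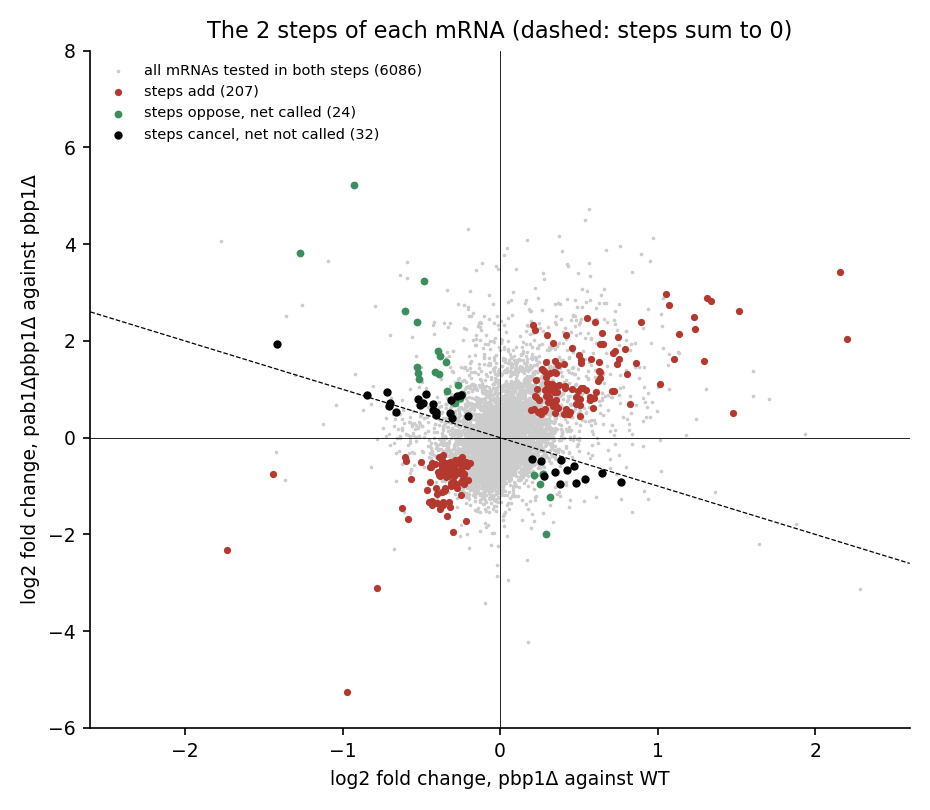
Each point is 1 of 6086 mRNAs tested at both steps (*PAB1* and *PBP1* left out, 1 point outside the axes), with the log2 fold change from WT to *pbp1Δ* on the x axis and from *pbp1Δ* to *pab1Δpbp1Δ* on the y axis. The 207 mRNAs whose steps add (red) lie in the upper right and lower left, the 32 whose steps cancel (black) lie near the dashed line where the steps sum to 0, and the 24 whose steps oppose with a net change (green) lie off that line on the side of the second step.

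In 207 mRNAs the steps added, 115 upward and 92 downward. The first step made up a median of 29.2% of their net log2 fold change. By the rule for named genes these included *YHR054C*, *BSC1*, *SRL4*, *DCV1*, *SPO74*, *CDA1*, *STE3* and *HES1*. *DCV1*, a predicted membrane protein, was measured at 1.12, 1.22 and 1.09 CPM in WT, 2.42, 2.94 and 3.17 CPM in *pbp1Δ* and 15.3, 26.8 and 20.6 CPM in *pab1Δpbp1Δ*. Its libraries formed 3 separate ranges, with log2 fold changes of 1.31 ± 0.15 and 2.89 ± 0.24 at the steps (adjusted p = 0.000332 and 0.000151 by edgeR) and 4.19 ± 0.24 net. *SRL4*, a gene linked to nucleotide pools, lay at 0.150, 0.113 and 0.123 CPM in WT, 0.410, 0.408 and 0.280 CPM in *pbp1Δ* and 1.55, 2.81 and 2.44 CPM in *pab1Δpbp1Δ*, with 1.52 and 2.63 at the steps. *SPO74*, a protein of the spindle pole body in meiosis, lay at 1.03, 1.15 and 1.35, 2.90, 3.03 and 2.72 and 6.80, 11.1 and 7.81 CPM in the strains in that order. *HES1*, a sterol-binding protein, had 1.10 and 1.63 at the steps and 2.73 ± 0.36 net.

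Of the 6082 mRNAs tested in all 3 comparisons, 3.40% were adding, 1.89% upward and 1.51% downward. By function, the adding mRNAs held 12 of 140 ribosome assembly factors (8.57%), all downward. They held 5 of the 42 sporulation genes tested in all 3 comparisons (11.9%), with *SPS4* downward and *SPS1*, *IME2*, *MPC54* and *CDA1* upward. They held 5 of 42 respiratory chain mRNAs (11.9%), with *ATP2*, *COR1*, *COX4* and *SDH1* downward and *CYC7* upward. No cytosolic ribosomal protein mRNA was among them. The number of adding mRNAs was 98 and 87 without WT replicates 2 and 3, 84, 53 and 44 without *pbp1Δ* replicates 1, 2 and 3, and 140 and 288 without *pab1Δpbp1Δ* replicates 3 and 1, so that it depended on most of the libraries. It was 422 with DESeq2.

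In 32 mRNAs the steps cancelled, that is, each step was called with the opposite sign and the net comparison was not called. The steps share the *pbp1Δ* libraries, so noise in those libraries by itself moves the steps in opposite directions. Its part in these calls was not tested. The first step was lower in 20 and higher in 12 of them. Absence of a net call does not show absence of a net change. The 95% interval of the net log2 fold change included 0 in 18 and excluded it in 14, lay within 0.5 of 0 on both sides in 15, and the WT and *pab1Δpbp1Δ* libraries overlapped in 17. *FYV4*, a mitochondrial protein, was measured at 17.6, 17.0 and 15.7 CPM in WT, 9.65, 9.34 and 8.98 CPM in *pbp1Δ* and 21.1, 15.5 and 14.5 CPM in *pab1Δpbp1Δ*. The *pbp1Δ* libraries lay below and the WT libraries inside the range of *pab1Δpbp1Δ*, with steps of -0.84 ± 0.07 and 0.88 ± 0.16 and a net value of 0.02 (95% interval -0.35 to 0.39). *PET123*, a small-subunit protein of the mitochondrial ribosome, went from 54.1, 53.0 and 51.5 CPM in WT to 33.8, 31.4 and 31.9 CPM in *pbp1Δ* and 64.2, 43.8 and 43.9 CPM in *pab1Δpbp1Δ*. Its net value was -0.07 (95% interval -0.44 to 0.30), and *pab1Δpbp1Δ* replicate 1 lay above WT while the others lay below it.

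The cancelling mRNAs in the other direction included transporters. *AAC3*, an ADP/ATP carrier of low-oxygen growth, lay at 5.42, 6.24 and 6.31 CPM in WT, 9.29, 11.4 and 9.86 CPM in *pbp1Δ* and 5.07, 5.66 and 5.31 CPM in *pab1Δpbp1Δ*, with steps of 0.77 ± 0.10 and -0.92 ± 0.15 and a net interval of -0.52 to 0.19. *HNM1*, the choline transporter, lay at 219.5, 197 and 196 CPM in WT, 313, 303.4 and 271 CPM in *pbp1Δ* and 185, 149.5 and 154 CPM in *pab1Δpbp1Δ*. For *HNM1* the *pab1Δpbp1Δ* libraries all lay below WT, and the net interval of -0.59 to -0.07 excluded 0, so the second step was larger than the first. *ITR1* (inositol uptake), *AGP1* (amino acid uptake) and *EPT1* (phospholipid synthesis) also rose at the first step and fell at the second, and *FUR4* (uracil uptake) did the reverse. *YGP1*, a secreted glycoprotein of starved cells, fell and then rose, like *FYV4* and *PET123*, and lay at 139.8, 106 and 90.3 CPM in WT, 50.4, 40.3 and 35.0 CPM in *pbp1Δ* and 181, 118 and 178 CPM in *pab1Δpbp1Δ* (net 0.50, 95% interval 0.02 to 0.99).

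The cancelling mRNAs were 0.526% of those tested in all 3 comparisons, and their count depended on the fit. It was 80 with DESeq2, 79, 43 and 20 without *pab1Δpbp1Δ* replicates 1, 2 and 3, 25 to 31 without a WT replicate, and 5, 3 and 5 without *pbp1Δ* replicates 1, 2 and 3. Of the 32, 17 were also among the 45 found with upper-quartile normalization. The list with the most cancelling members was that of mitochondrial ribosomal proteins, with 7 of 81 (8.64%): *MRP1*, *MRPL13*, *MRPL31*, *MRPL32*, *MRPS17*, *PET123* and *FYV4*. All 7 were lower at the first step and higher at the second. Other mRNAs of mitochondrial proteins that cancelled in this direction were *MIA40* and *CYC3*, which act in the intermembrane space, *ATP14* of the ATP synthase, and *AIM36*, *GEP3*, *FMP10*, *DPC29* and *MRX15*. Those that cancelled in the opposite direction were *AAC3*, given above, and *POR2*, a mitochondrial porin, with steps of 0.47 ± 0.04 and -0.58 ± 0.13.

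In mitochondrial ribosomal proteins the steps opposed each other over much of the list. What part noise in the shared *pbp1Δ* libraries had in this was not tested. Of 81 mRNAs, 51 were lower and 2 higher at the first step (median -0.38), 26 were higher and none lower at the second (median 0.46), and 13 were higher and 15 lower in the net comparison (median 0.11). *MRPL32*, a large-subunit protein, lay at 28.9, 26.8 and 26.9 CPM in WT, 19.9, 18.8 and 19.2 CPM in *pbp1Δ* and 37.4, 24.4 and 30.1 CPM in *pab1Δpbp1Δ*, with a net value of 0.15 ± 0.16. *MRPS16*, a small-subunit protein, ended above WT, at 61.0, 44.5 and 41.0 CPM against 23.1, 24.2 and 22.5 CPM (1.06 ± 0.16, adjusted p = 0.00107 by edgeR). *MRPS35* ended below WT, at 30.9, 21.96 and 25.03 CPM against 50.7, 51.4 and 52.4 CPM (-0.99 ± 0.13, adjusted p = 0.000713), and was already at 33.0, 32.0 and 32.3 CPM in *pbp1Δ*.

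The net median of mitochondrial ribosomal proteins rested on 1 library. Their median log2 ratio to WT was 0.38 in *pab1Δpbp1Δ* replicate 1, -0.21 in replicate 2 and -0.09 in replicate 3, and -0.30, -0.41 and -0.38 in the *pbp1Δ* libraries. Without *pab1Δpbp1Δ* replicate 1 the net median was -0.12, with 17 higher and 28 lower, and the second step kept a median of 0.28, with 35 higher and 4 lower. At the second step 10 were higher without each of the *pbp1Δ* replicates and 15 without *pab1Δpbp1Δ* replicate 3. In the net comparison 8, 9 and 8 were higher and 5, 6 and 5 lower without WT replicates 1, 2 and 3, and 5 were lower without *pab1Δpbp1Δ* replicate 3. With upper-quartile normalization 22 were higher and 6 lower net, with a median of 0.35. The sign of the net median therefore depended on replicate 1, and its size and the majority of calls depended on the scaling. The second step's median stayed above 0 without *pab1Δpbp1Δ* replicate 1. That library is not part of the first step, and the medians of the steps with upper-quartile normalization are not given here.

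**Figure D5:**
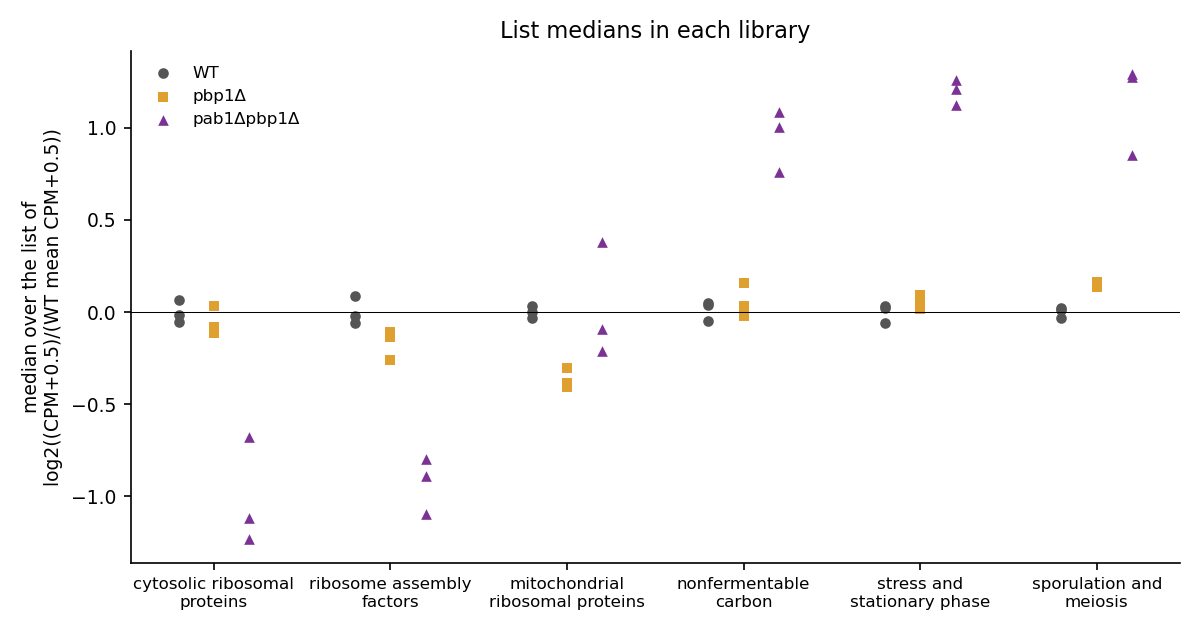
Median over 6 gene lists of the log2 ratio of CPM to the WT mean, with 0.5 CPM added to both, in each library of WT (grey circles), *pbp1Δ* (orange squares) and *pab1Δpbp1Δ* (purple triangles). Mitochondrial ribosomal proteins lie at -0.30 to -0.41 in *pbp1Δ* and at 0.38, -0.21 and -0.09 in *pab1Δpbp1Δ*, whereas ribosomal proteins (-0.68 to -1.24) and stress genes (1.12 to 1.26) lie far from WT in *pab1Δpbp1Δ* and close to it in *pbp1Δ*.

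In 24 of the 6082 mRNAs tested in all 3 comparisons the steps opposed each other and a net change remained. It was upward in 19 and downward in 5, in each case in the direction of the second step. Here too noise in the shared *pbp1Δ* libraries moves the steps apart. The share of each function among the 24 was not counted, so the genes named are examples. They included genes of respiration and carbon use. *HAP4*, the activating subunit of the factor that drives respiratory genes, lay at 63.2, 58.9 and 55.6 CPM in WT, 45.9, 39.0 and 38.8 CPM in *pbp1Δ* and 106, 111 and 91.7 CPM in *pab1Δpbp1Δ* (0.80 ± 0.11 net, adjusted p = 0.00071 by edgeR). The strains did not overlap, with *pbp1Δ* lowest and *pab1Δpbp1Δ* highest. *CYC1*, the major cytochrome c, lay at 289, 265 and 262 CPM, 210.5, 168 and 191 CPM and 508, 347 and 459 CPM in the strains in that order (0.68 ± 0.15 net), and *CYB2*, which oxidizes lactate in mitochondria, at 8.32, 6.61 and 6.12 CPM, 4.83, 4.48 and 4.54 CPM and 32.3, 26.2 and 26.7 CPM (2.01 ± 0.16 net). The subunits of NAD-dependent isocitrate dehydrogenase behaved alike in sign, *IDH1* with steps of -0.29 and 0.71 and *IDH2* with -0.24 and 0.89.

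They also included stress genes. *HSP12*, given above, had steps of -0.93 ± 0.17 and 5.22 ± 0.24. *XBP1*, a transcriptional repressor of quiescent cells, lay at 7.67, 7.18 and 6.26 CPM in WT, 5.398, 4.94 and 4.73 CPM in *pbp1Δ* and 37.1, 59.5 and 45.6 CPM in *pab1Δpbp1Δ* (2.75 ± 0.19 net, adjusted p = 9.09e-05 by edgeR). *TDH1*, the glyceraldehyde-3-phosphate dehydrogenase of stationary phase, had steps of -0.53 and 2.38 and 1.84 ± 0.14 net. *NCA3*, a wall-associated protein, had the largest first step of the set, -1.27, followed by 3.82. Of the 5 that ended lower, *PLB2*, a phospholipase B, was the largest, at 139.7, 129 and 136 CPM in WT, 166, 168 and 159 CPM in *pbp1Δ* and 47.8, 39.9 and 35.9 CPM in *pab1Δpbp1Δ* (-1.72 ± 0.12 net). The others were *YGR035C*, *PSD1*, *MRI1* and *RKM1*.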

How the data were processed

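The data were RNA-Seq libraries of yeast, 3 each of WT, *pbp1Δ* and *pab1Δpbp1Δ* cells, grouped by their labels. The authors aligned reads with Bowtie 1.0.0 to a transcriptome of spliced mRNAs, unspliced forms and other RNAs built on R64, and quantified them with RSEM 1.3.0. The deposited expected counts are RSEM estimates per transcript, not normalized, and were rounded here. The deposited FPKM values are scaled by the authors to effective length and library size, and were used only to compare levels between genes. Of 6587 mRNA rows 674 had no RefSeq gene and 68 no count. 37 rows hold the same counts as another row (15 sets), 8 of them called.

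Counts were analysed in R 4.3.3 with edgeR 4.0.16 (TMM, filterByExpr with a minimum count of 10, robust glmQLFit and glmQLFTest) on the 6 libraries of each pair of strains, over the whole table including unspliced forms. Benjamini-Hochberg adjusted p-values under 0.01 were calls. Confidence intervals are at 95%. 369 mRNAs were below the filter in the net comparison. The procedure was checked on simulated data. Figures were drawn with matplotlib 3.10.9 in Python 3.11.15. Motifs were counted in reference windows of 250 bases before and 50 after gene starts.

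The members and the 40 lists were chosen with earlier results of these data known. Named genes were the targets and *URA3*, the 10 largest rises and falls among called mRNAs with a RefSeq gene, a mean of at least 50 normalized counts and no overlap between libraries, the 2 largest called in each direction per list, and the 10 largest cancelling and adding mRNAs. Members named for their role were chosen with their values known, and some genes the rule gave are left out for brevity.

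Alternatives were RLE and upper-quartile normalization, DESeq2 1.42.0, no filter, the table per locus, a joint fit of all 9 libraries, a minimum of 10 counts in each library, an adjusted p under 0.05, a fold of at least 2, each library left out, and replicate number as a block. For the net comparison, deviations from the strain means correlated between same-numbered WT and *pab1Δpbp1Δ* libraries with r of 0.187, 0.238 and 0.202. No label says what these libraries share. Libraries of different numbers were not correlated in this way, so whether the numbers pair them is not known. The block fit is therefore only a hint. With the replicate block 2827 mRNAs changed (1417 higher, 1410 lower), 2587 of them shared with the fit without it. Intervals of counts cover counting and library spread as modelled by edgeR. Ribosome profiling and mass spectrometry data of the study were not analysed here.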

Additional observations from a re-analysis of the deposited data

How the results depend on the processing

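No named gene with a call changed sign under an alternative that gave it a value, and no mRNA was called in a direction opposite to that given above. List medians did change sign in 11 of 40 lists, each within 0.20 of 0 in the analysis given above, 7 of them with upper-quartile normalization and 7 (some of them the same) under another alternative. The 2764 net changes lay between 2640 and 3514 under other normalizations, filters, DESeq2 (3510), all 9 libraries in the fit, the table per locus and the replicate block (2827). They were 1225 with a change of at least 2-fold as well, and 1364 to 4046 with 1 library left out. The 722 first-step changes became 1123 with DESeq2, 18 with all 9 libraries in the fit, 1405 with the replicate block, 1513 at an adjusted p under 0.05, 28 at 2-fold and 316 to 672 with 1 library left out. The 2232 second-step changes became 3459 at an adjusted p under 0.05, 935 at 2-fold and 847 to 3762 with 1 library left out. The 32 cancelling mRNAs became 80 with DESeq2, 1 with all 9 libraries, 41 with the replicate block, 125 at an adjusted p under 0.05, 1 at 2-fold and 3 to 79 with 1 library left out. The 207 adding mRNAs became 422, 8, 393, 656, 15 and 44 to 288 under the same alternatives in that order. For the steps, same-numbered libraries did not all deviate together (r of 0.474, -0.056 and 0.110 at the first, 0.144, -0.023 and 0.159 at the second), so the block is only a hint there as well. Of the named genes and their alternatives, 2060 kept their side of the threshold, 129 lost a call and 2 gained one (*FMP10* with upper-quartile normalization and *HNM1* without *pab1Δpbp1Δ* replicate 1). Of list medians, 515 stayed within the spread of the *pab1Δpbp1Δ* libraries and 45 moved, 33 of these with upper-quartile normalization. Depth was at least 73062345 counts per library. Each strain had 3 libraries, and with no spike-in the zero point of every change is set by the scaling.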

Other observations

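Gene ontology terms of the RefSeq annotation with at least 15 tested mRNAs were looked at after the lists were known. Some were groups the lists did not hold, and others were of processes that a list covers. Of 17 members of the RSC-type chromatin remodelling complex term 13 were lower and 1 higher (median net log2 fold change -0.76). Of 15 members of the term for import of proteins with a nuclear localization signal 12 were lower and none higher (median -0.79). Of 16 members of the nuclear pre-replicative complex, which loads the replicative helicase, 10 were lower and none higher (median -0.74). Terms with medians above 0 included ascospore wall assembly (30 of 47 higher and 2 lower, median 1.06), reciprocal meiotic recombination (20 of 45 higher and 2 lower, median 0.56) and assembly of mitochondrial cytochrome c oxidase (10 of 27 higher and 1 lower, median 0.52). The last had a median of -0.16 at the first step and 0.60 at the second. The ascospore wall and meiotic recombination terms belong to processes that the sporulation and meiosis list covers, so they are not separate evidence. The broader term meiotic cell cycle had 13 of 47 higher and 11 lower (median 0.07). These counts stand beside 22.3% higher and 22.1% lower among all mRNAs.

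A pair of neighbouring entries on chromosome XII, *YLR012C* (chrXII:169982-170281) and *GAT3* (chrXII:171339-171764), was among the largest rises. *YLR012C* was measured at 0.0409, 0.0501 and 0.0154 CPM in WT, 8.35, 0.0841 and 0.168 CPM in *pbp1Δ* and 10.4, 11.3 and 12.7 CPM in *pab1Δpbp1Δ* (8.23 ± 0.30 net, adjusted p = 1.77e-05 by edgeR). Its *pbp1Δ* replicate 1 thus lay near the *pab1Δpbp1Δ* libraries and the other *pbp1Δ* replicates near WT, and the second step did not pass the test (2.00, adjusted p = 0.244). *GAT3* also had its highest *pbp1Δ* value in replicate 1, with 0.253, 0.0360 and 0.0140 CPM. The labels do not say from which *pbp1Δ* isolate the *pab1Δpbp1Δ* strain was made.

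The 90 tested mRNAs of chromosome I had a median net log2 fold change of 0.30, with 31 higher and 13 lower, and 0.23, 0.34 and 0.36 in the *pab1Δpbp1Δ* libraries. The medians of the other chromosomes lay between -0.13 (chromosome XIV) and 0.16 (chromosome IX). Within 5 equal groups of mean level the chromosome I median was 1.18, 0.57, 0.17, 0.08 and -0.34 from the lowest to the highest, against 1.19, 0.31, -0.02, -0.22 and -0.53 elsewhere.

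The proteasome element GGTGGCAAA, bound by Rpn4, was in 71.1% of windows of proteasome genes (27 of 38) and 1.23% of all windows. The mRNAs of the 71 windows that held it had 15 higher and 16 lower (median 0.10). The heat-shock element GAANNTTC was in 10.8% of windows of higher mRNAs, 12.9% of lower and 11.99% of all, and the Gcn4 site TGACTC in 9.22%, 7.94% and 8.24%.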
